A study of Arabidopsis thaliana with 12 samples.

Results

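AT1G47400 is a protein-coding gene on chromosome 1 of Arabidopsis thaliana, read here by 1 probe set of the 22746 on the array that are not controls, and 1 of the 13286 genes that the probe sets could be matched to. It was chosen by its own signals over the 4 groups of arrays, so its levels and differences below are a description and carry no test. The annotation used here gives the gene only its locus name. From general knowledge it is IRONMAN 1 (IMA1, also FEP3), a gene for a small peptide of the iron-deficiency response.

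The data come from Affymetrix ATH1 arrays of total RNA from the aerial parts of seedlings grown for 2 weeks on Murashige and Skoog agar, with 3 arrays in each group. Wild type (Col-0) and mutant plants (SALK_098604, SALK_054752, known as insertion lines of the type-B response regulators ARR10 and ARR12) were compared. Both genotypes received a spray of 20 µM of the cytokinin trans-zeatin (tZ), or of 0.02% DMSO as the solvent control, for 1 h. The labels give both insertions for every mutant array but do not say whether 1 plant carried both, and separate plantings are not stated for the replicates, so each p-value reflects array-to-array spread that could be technical.

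Plants short of iron take it up through transporters and reductases whose genes are switched on by a cascade of bHLH transcription factors. Subgroup IVc factors (bHLH34, bHLH104, ILR3 and bHLH115), with bHLH121, act at the top of the cascade, and the E3 ligases of the BRUTUS family mark IVc factors for breakdown. IRONMAN peptides bind those ligases and thereby spare the factors. In shoots the peptide genes are known for their strong rise when leaf iron runs short, and a part of their expression lies in the vascular tissue. Cytokinin acts through a phosphorelay that ends in the type-B response regulators, which activate early response genes such as the type-A regulators.

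Signal of AT1G47400 was above the array medians (33.8 to 35.7) under DMSO and several-fold higher after tZ in both genotypes, whose arrays overlapped in level. In wild type the DMSO arrays read 37.8, 59.1 and 37.5, and the tZ arrays read 487, 320 and 260 (MAS5 signal, linear scale, replicates 1 to 3 in order). In the mutant the DMSO arrays read 39.4, 44.1 and 60.0, and the tZ arrays read 334, 408 and 309. Every tZ array lay above every DMSO array, and the genotypes overlapped within each treatment. The lowest tZ array, wild type replicate 3, read 4.34 times the highest DMSO array, mutant replicate 3.

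**Figure D1:**
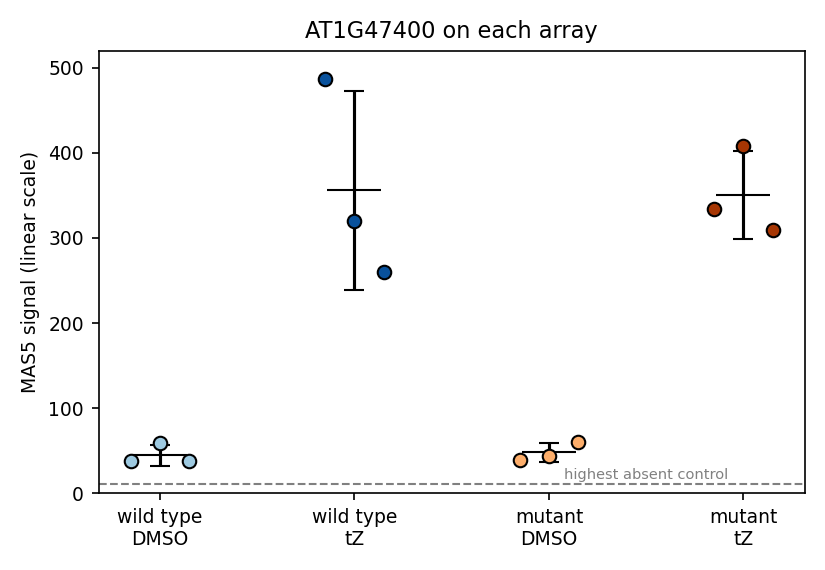
MAS5 signal of AT1G47400 (linear scale) on each of the 12 arrays, with 3 points per group in the order of the replicate numbers, the mean as a horizontal mark and the SD as a bar. The dashed line is the highest absent-control signal, 11.2. The 6 tZ arrays lie between 260 and 487 and the 6 DMSO arrays between 37.5 and 60.0, and in each treatment wild type and mutant overlap.

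As a reading of absent transcripts, 27 control probe sets against bacterial genes were used. Their highest signal was 11.2, and the lowest AT1G47400 array read 3.36 times that, so the probe set was read above that level on each array. Its fold change was thus not taken from a reading at that level. Whether other RNA adds to the DMSO signal was not tested. Group means were 44.8 ± 12.4 in wild type under DMSO, 356 ± 117 in wild type under tZ, 47.8 ± 10.8 in the mutant under DMSO and 350 ± 51.5 in the mutant under tZ (SD, n = 3 each). The means of the 2 DMSO groups differed by less than their SDs, as did those of the 2 tZ groups, while the treatments lay further apart. The gene was chosen on these values, so this describes them and is no test.

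Mean signal under tZ was 7.94 times that under DMSO in wild type, and 7.33 times in the mutant. As log2(signal + 10), where the 10 damps the noise of dim signals and shrinks the change of dim probe sets, the difference was 2.71 (SE 0.21) in wild type and 2.65 (SE 0.21) in the mutant. Among 13513 probe sets that name 1 gene it had the 7th highest change in wild type and the 12th highest in the mutant. Among all 22746 probe sets tested it ranked 17 in wild type and 21 in the mutant. Probe sets with every tZ array above every DMSO array made up 20.7% of all those tested in wild type, 21.5% in the mutant and 15.6% over both genotypes together. A clean separation of treatments was thus common on these arrays, and it was the size of the AT1G47400 difference that few probe sets reached. In bulk tissue, more cells that express a gene and more RNA per cell cannot be told apart.

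The genotypes differed little in AT1G47400 under either treatment. Mutant minus wild type was 0.09 (SE 0.21) on the log2(signal + 10) scale under DMSO and 0.02 (SE 0.21) under tZ. The tZ response of the mutant minus that of wild type was -0.07 (SE 0.30). Each of these differences was smaller than its SE, and 72.3% of all probe sets had a response difference of larger size.

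The type-A regulators ARR15 and ARR16, early cytokinin response genes that serve here as the check of the treatment, had lower tZ signal in the mutant than in wild type. ARR15 read 14.7 ± 5.05 under DMSO and 447 ± 40.2 under tZ in wild type, and 11.1 ± 2.38 and 158 ± 5.34 in the mutant. ARR16 read 85.5 ± 1.37 and 178 ± 4.99 in wild type, and 92.7 ± 6.77 and 102 ± 8.16 in the mutant. After tZ, ARR15 rose in wild type (log2 change 4.23, limma adjusted p = 2.0e-10) and in the mutant (3.00, adjusted p = 2.7e-09). ARR16 rose in wild type (0.98, adjusted p = 1.8e-07) but did not pass in the mutant (0.12, adjusted p = 0.24). The ARR15 mean of the mutant under DMSO lay just below the highest absent control. Mutant minus wild type under tZ was -1.44 for ARR15 (SE 0.14, limma adjusted p = 4.4e-04) and -0.75 for ARR16 (SE 0.08, adjusted p = 7.1e-04), against 0.02 for AT1G47400. The difference of the responses did not pass for either (-1.23, adjusted p = 0.18 for ARR15, and -0.86, adjusted p = 0.054 for ARR16). Whether AT1G47400 differs from these genes in its dependence on genotype was not tested.

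**Figure D2:**
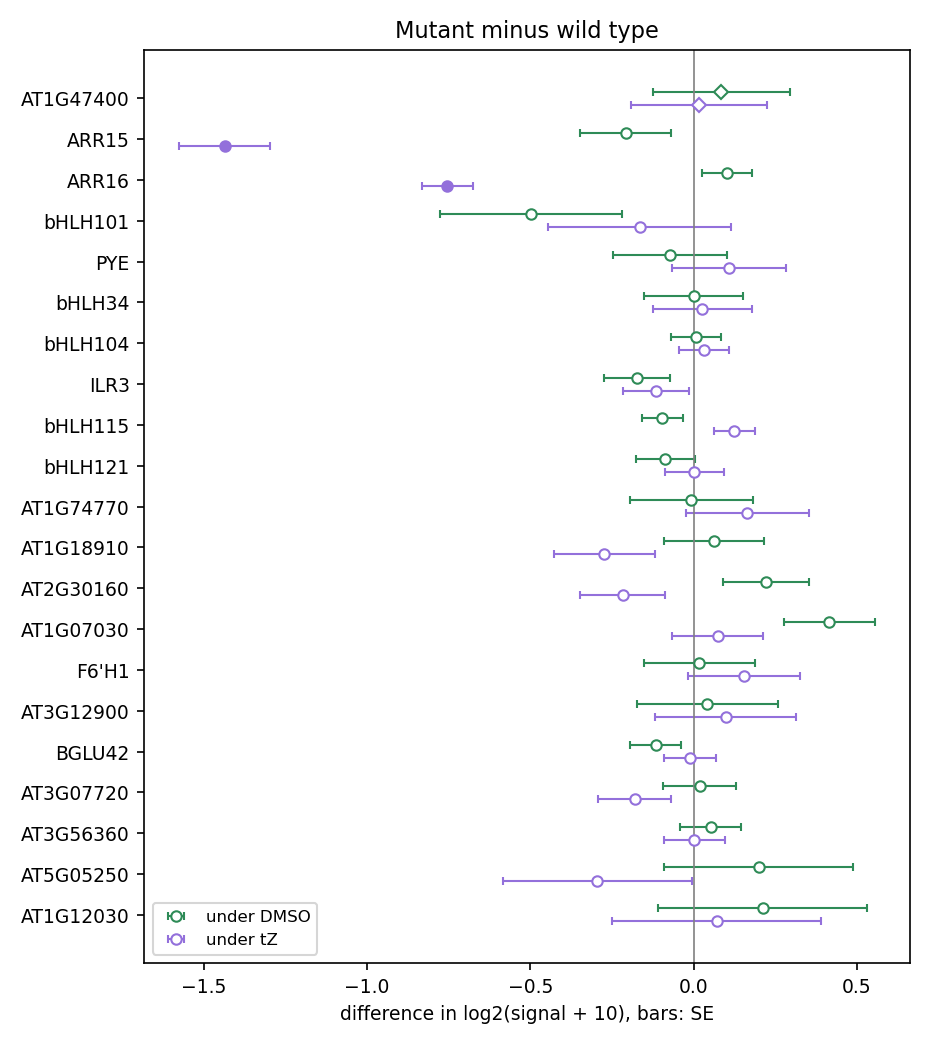
Mutant minus wild type in log2(signal + 10) under DMSO (green) and under tZ (purple) for AT1G47400 (diamonds, not tested), ARR15, ARR16 and the 18 other iron genes measured by name, with the SE as bars and filled circles for a limma adjusted p under 0.05. ARR15 at -1.44 and ARR16 at -0.75 under tZ are the filled circles, while both AT1G47400 values lie within 1 SE of 0.

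AT1G47400 varied more between arrays of 1 group than most probe sets. Its pooled SD within groups was 0.318 on the log2(signal + 10) scale, against a median of 0.144 over the 16181 probe sets with a group mean above the highest absent control, and 95.9% of them had a smaller one. The spread was widest in wild type under tZ, where replicate 1 read 1.87 times replicate 3 and the SD was 0.448 on that log2 scale. In the mutant under tZ it was 0.202. With any 1 array left out, the wild type change lay between 2.47 and 2.91 and the mutant change between 2.53 and 2.79, as log2(signal + 10).

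The arrays of the 2 treatments also stood apart in measures of RNA and labelling. The ratio of 5' to 3' signal of actin, which falls when labelled RNA does not reach the 5' end of a transcript, ran from 0.252 to 0.328 on the tZ arrays and from 0.0409 to 0.0579 on the DMSO arrays. For GAPDH the ranges were 0.704 to 0.837 and 0.226 to 0.294. Treatment and array set therefore cannot be told apart in any comparison of tZ with DMSO, whereas the genotype comparisons lie within 1 array set.

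Changes between these array sets ran with the length of the gene. Over 8886 named probe sets above the absent-control level and matched to a locus, the median tZ minus DMSO difference in wild type went from 0.16 among the 1778 shortest genes by span to -0.31 among the 1777 longest on the log2(signal + 10) scale. In the mutant it went from 0.21 to -0.31. AT1G47400 spans 779 bp, and 2.79% of these probe sets belong to a shorter gene. Among 249 other probe sets for genes no longer than AT1G47400, the median difference in wild type was 0.04 and that in the mutant 0.07. In wild type 0 of the 249 changed as much as AT1G47400, the highest being 2.39. In the mutant 2 did, the highest being 2.84. Of the 249, 34.9% passed as higher in wild type and 36.5% in the mutant, against 18.2% and 17.9% of all probe sets. As lower, 24.9% and 22.9% passed, against 25.4% and 24.9%. All probe sets include those below the absent-control level and the 249 do not, so these backgrounds are not matched in level. Above that level, from the shortest to the longest bin by span, 38.2% to 10.2% passed as higher in wild type and 18.8% to 46.7% as lower. In the mutant it was 39.5% to 8.50% as higher and 17.4% to 48.5% as lower. Over 5 bins by span, shortest first, the share changing as much as AT1G47400 was 0.169%, 0.225%, 0%, 0% and 0% in wild type. In the mutant it was 0.337%, 0.281%, 0%, 0.0563% and 0%. Whether gene length bears on the AT1G47400 difference was not tested.

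**Figure D3:**
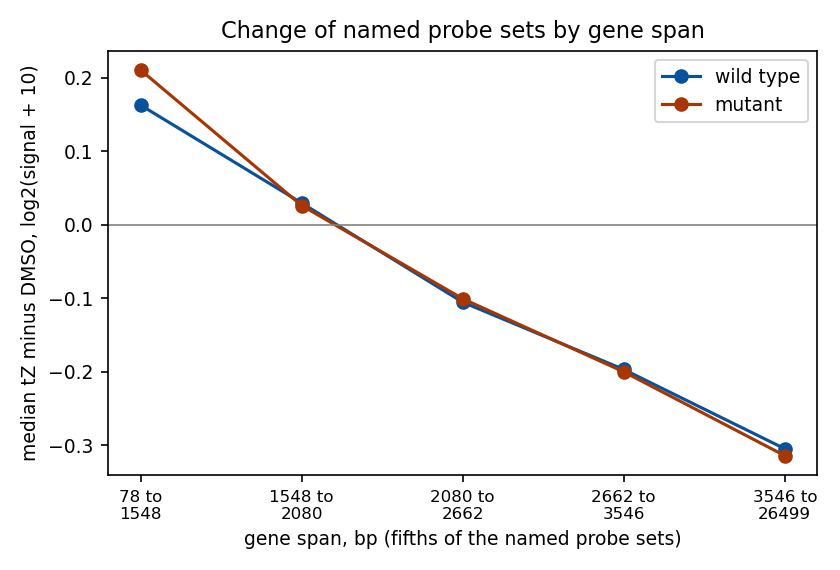
Median tZ minus DMSO difference in log2(signal + 10) of named probe sets above the absent-control level, in 5 bins of equal size by gene span (bp, shortest to longest on the x axis), for wild type (blue) and mutant (orange-brown). Both lines fall from above 0 in the shortest bin to -0.31 in the longest, and AT1G47400, at 2.71 and 2.65, lies far above the range of the axis.

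The closest relative of AT1G47400 is its neighbour AT1G47395, known as IRONMAN 2, which is the next gene before it on the chromosome in the TAIR10.1 annotation. No probe set was named for AT1G47395 or for a further peptide gene, AT2G30766 (IRONMAN 3), so of these 3 peptide genes AT1G47400 alone was read by name. Whether RNA of AT1G47395 adds to its signal was not tested. Around the locus, the 3 nearest measured genes on each side were read to see how far the change extended. AT1G47380, the nearest measured gene before it with 3 genes in between, rose from 76.4 ± 7.60 to 104 ± 9.88 in wild type (log2 change 0.40, SE 0.10, adjusted p = 0.0050) and from 64.4 ± 7.50 to 89.3 ± 4.68 in the mutant (0.42, adjusted p = 0.0039). AT1G47410, the nearest after it with 5 genes in between, fell from 59.5 ± 12.6 to 40.7 ± 2.38 in wild type (log2 change -0.44, SE 0.12, adjusted p = 0.010), and in the mutant it read 53.5 ± 0.257 and 47.6 ± 3.57 (adjusted p = 0.41). The other 4 (AT1G47370, AT1G47360, AT1G47465 and AT1G47470) had every group mean below the highest absent control. AT1G47380 and AT1G47410 thus changed far less than AT1G47400, and in different directions, while the others were too dim to read a change. No probe set was named for the 3 genes next to AT1G47400 on either side, so a change there could not be read.

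Of 65 other iron genes on the lists, 18 were measured by name, and they did not move as a block with AT1G47400. In wild type 4 of the 18 rose after tZ (22.2%, against 18.2% of all probe sets) and 3 fell (16.7%, against 25.4%). In the mutant 5 rose (27.8%, against 17.9%) and 4 fell (22.2%, against 24.9%). In either direction 38.9% of the 18 passed in wild type and 50% in the mutant, against 43.6% and 42.8% of all probe sets. These shares are near that background, which includes probe sets below the absent-control level and is not matched in level to the 18. In log2(signal + 10) the 18 had a median difference of -0.05 in wild type and of 0.03 in the mutant, beside -0.08 and -0.07 over all probe sets. The wild type and mutant comparisons share no array, but both cross the array sets. Both also use the same variance for each gene, fitted over all 12 arrays, so their calls are not independent.

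**Figure D4:**
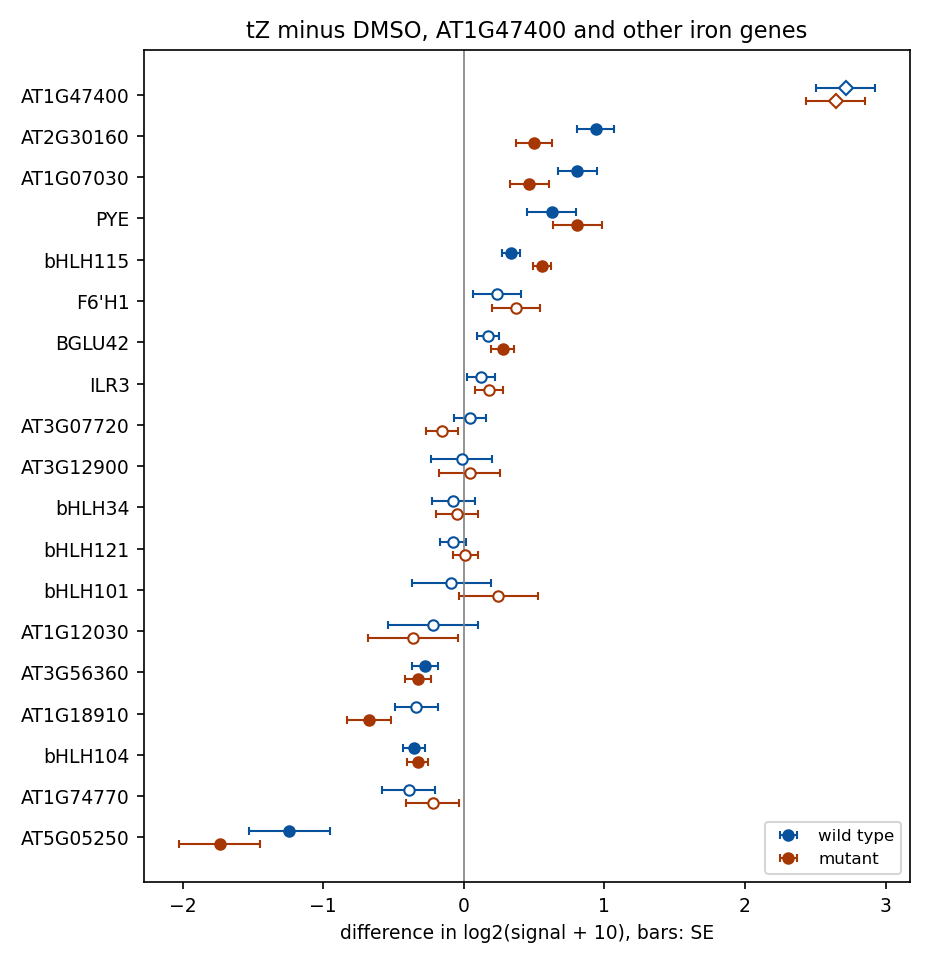
tZ minus DMSO in log2(signal + 10) for AT1G47400 (diamonds, not tested) and the 18 other iron genes measured by name, in wild type (blue) and mutant (orange-brown), ordered by the wild type value, with the SE as bars and filled circles for a limma adjusted p under 0.05. AT1G47400, at 2.71 and 2.65, stands apart from the others, which run from 0.94 for AT2G30160 down to -1.24 for AT5G05250 in wild type.

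Of the regulators, 9 of 16 were measured besides the peptide gene, and 2 rose and 1 fell in wild type (22.2% and 11.1%, against 18.2% and 25.4% of all probe sets), while 2 rose and 2 fell in the mutant (22.2% each, against 17.9% and 24.9%). POPEYE (PYE), a bHLH factor that represses iron homeostasis genes and is itself induced by iron deficiency, read 23.3, 35.2 and 29.1 under DMSO and 64.3, 45.8 and 42.1 under tZ in wild type. It read 22.4, 31.0 and 28.1 under DMSO and 49.0, 69.8 and 47.6 under tZ in the mutant. The treatments did not overlap in either genotype, and the log2 change was 0.63 in wild type (SE 0.17, adjusted p = 0.0093) and 0.81 in the mutant (SE 0.17, adjusted p = 0.0017). Without wild type tZ replicate 1 the wild type change was 0.47 and its call was lost (adjusted p = 0.053, in a range of 0.0034 to 0.053 across alternatives).

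The subgroup IVc factors, which activate the iron-deficiency response, went different ways. bHLH115 rose from 147 ± 7.31 to 188 ± 5.29 in wild type (log2 change 0.33, SE 0.06, adjusted p = 5.8e-04) and from 137 ± 4.85 to 206 ± 5.08 in the mutant (0.55, adjusted p = 6.1e-06). bHLH104 fell from 228 ± 15.7 to 176 ± 9.10 in wild type (log2 change -0.35, SE 0.08, adjusted p = 0.0017) and from 229 ± 10.5 to 181 ± 14.8 in the mutant (-0.33, adjusted p = 0.0029). ILR3, bHLH34 and bHLH121 did not pass in either genotype, with differences between -0.08 and 0.18, although ILR3 passed in the mutant without mutant DMSO replicate 1 (log2 change 0.29, adjusted p = 0.026).

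The subgroup Ib factor bHLH101, a common marker of iron deficiency, stayed near the absent-control level, with group means from 6.72 to 13.2, and did not pass (adjusted p = 0.84 in wild type and 0.54 in the mutant). The BRUTUS-like ligase gene AT1G18910 (BTSL2) fell in the mutant, from 29.4 ± 3.44 to 14.8 ± 4.18 (log2 change -0.67, SE 0.15, adjusted p = 0.0025). In wild type it read 27.8 ± 4.18 and 19.9 ± 3.57 (-0.34, adjusted p = 0.097), and the difference between the responses was -0.34 (SE 0.22, adjusted p = 0.83). Its relative AT1G74770 (BTSL1) has 2 probe sets, the brighter with means from 6.59 to 12.0 and the other under 1 in every group, and neither passed.

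Of 19 iron transport genes, 2 were measured, and both rose in both genotypes, where 18.2% of all probe sets rose in wild type and 17.9% in the mutant. AT2G30160 and AT1G07030, known as the mitochondrial iron carriers MIT1 and MIT2, are close relatives, so how their signals split between them is uncertain. AT2G30160 rose from 30.8 ± 5.49 to 68.3 ± 11.1 in wild type (log2 change 0.94, SE 0.13, adjusted p = 4.0e-05) and from 37.3 ± 0.984 to 57.1 ± 6.88 in the mutant (0.50, adjusted p = 0.0064). AT1G07030 rose from 21.0 ± 3.14 to 44.2 ± 4.30 in wild type (log2 change 0.81, SE 0.14, adjusted p = 2.8e-04) and from 31.6 ± 7.24 to 47.0 ± 4.43 in the mutant (0.47, adjusted p = 0.015). The mutant call of AT1G07030 did not survive leaving out tZ replicate 2 (adjusted p = 0.059), DMSO replicate 1 (0.066) or DMSO replicate 3 (0.056) of the mutant, and its adjusted p ran from 0.0032 to 0.066 across alternatives. None of the 8 uptake and reduction genes or the 8 storage genes (ferritins and vacuolar iron transporters) was measured by name. Only 13513 of the 22746 probe sets name 1 gene, so genes not measured by name may still have a probe set on the array.

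Among 4 measured of the 7 other genes known to be induced by iron deficiency, 2 fell and 0 rose in both genotypes, where 25.4% of all probe sets fell and 18.2% rose in wild type, and 24.9% and 17.9% in the mutant. AT5G05250, of unknown function, read 260, 470 and 187 under DMSO and 148, 122 and 83.0 under tZ in wild type. In the mutant it read 285, 427 and 291 under DMSO and 72.9, 125 and 83.8 under tZ. The groups did not overlap, and the log2 change was -1.24 in wild type (SE 0.29, adjusted p = 0.0028) and -1.74 in the mutant (SE 0.29, adjusted p = 2.0e-04), the opposite direction to AT1G47400. AT3G56360 fell from 815 ± 96.9 to 669 ± 65.5 in wild type (log2 change -0.28, SE 0.09, adjusted p = 0.027) and from 843 ± 56.0 to 669 ± 34.8 in the mutant (-0.33, adjusted p = 0.011). Its wild type call did not survive leaving out tZ replicate 3 (adjusted p = 0.13), DMSO replicate 1 (0.12) or DMSO replicate 2 (0.077) of wild type, and across alternatives its adjusted p ran from 0.0050 to 0.13. AT3G07720 and AT1G12030 did not pass.

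Of the genes for coumarins, compounds secreted by roots that mobilise iron, 3 of 5 were measured. The glucosidase gene BGLU42 rose in the mutant, from 86.6 ± 5.70 to 107 ± 3.67 (log2 change 0.28, SE 0.08, adjusted p = 0.011), and read 94.6 ± 5.82 and 108 ± 5.73 in wild type (0.17, adjusted p = 0.10). F6'H1 and AT3G12900, which make scopoletin and fraxetin, had every group mean below the highest absent control. Under the main setting F6'H1 did not pass. It passed in the mutant without wild type tZ replicate 3 (adjusted p = 0.042) or mutant tZ replicate 3 (0.022), from group means below that level.

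Between the genotypes, 0 of the 18 iron genes passed under DMSO, under tZ or in the difference of the responses by limma. At an unadjusted p under 0.05 there were 1, 0 and 2 of them, against 2162, 1265 and 1598 of all 22746 probe sets. After adjustment 0.0132% of all probe sets passed under DMSO, 0.0352% under tZ and 0% in the difference of the responses (3, 8 and 0 probe sets). The smallest adjusted p among the 18 was 0.38 under DMSO, for AT1G07030, 0.92 under tZ and 0.66 in the difference of the responses, both for bHLH115. AT1G47400 itself was not tested, and its genotype differences were smaller than their SEs.

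The deviations of the 12 arrays from their group means correlated at r = 0.835 between the 2 genes on the log2(signal + 10) scale. In wild type under tZ, replicate 1 was the highest for both genes and replicate 3 the lowest. In the mutant under tZ, replicate 2 was the highest for both and replicate 3 the lowest. Under DMSO the orders matched in part. In wild type replicate 2 was the highest for both, but the lowest was replicate 3 for AT1G47400 and replicate 1 for PYE. In the mutant replicate 1 was the lowest for both, but the highest was replicate 3 for AT1G47400 and replicate 2 for PYE. Of 8922 named probe sets compared, 17 with PYE included (0.191%) had an r with AT1G47400 at or above that of PYE, and the median r was 0.02. PYE was looked at among the 18 iron genes after its values were seen. Other iron genes with such correlations were bHLH101 (0.774), bHLH34 (0.765), AT5G05250 (0.692) and AT1G12030 (0.614), and the remaining 13 lay between -0.430 and 0.434. The points share arrays and their scaling, so these values describe the 12 arrays only.

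**Figure D5:**
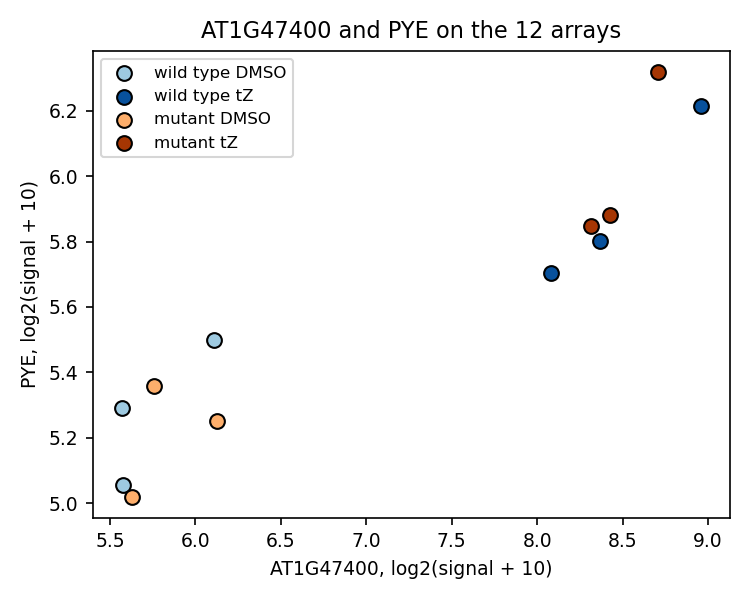
log2(signal + 10) of PYE against that of AT1G47400 on the 12 arrays, coloured by group. The 6 tZ arrays lie apart at the upper right, and within each tZ group the array with the higher AT1G47400 signal also has the higher PYE signal.

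Many named genes had a profile like that of AT1G47400 across the 12 arrays, since 96.3% of its variance lay between the tZ and the DMSO arrays. Of 8922 named probe sets, 1188 (13.3%) correlated with it at r above 0.9 and 1569 at r below -0.9. The 10 with the highest Pearson r over the 12 arrays ran from 0.991 to 0.986. In order they were LCR68, a defensin-like gene, AT2G44210, AT3G26085, the glutathione transferase gene GSTL3, AT2G26970, AT4G16140, AT4G10810, AT3G12290, AT4G34560 and AT5G52420. With a pseudocount of 1, 8 of these 10 stayed in the list.

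The 10 differed in size. LCR68 read 464 ± 13.2 under DMSO and 1200 ± 107 under tZ in wild type, and 470 ± 11.9 and 1185 ± 54.4 in the mutant. AT4G10810, with the change nearest to that of AT1G47400 among the 10, read 27.3 ± 3.26 and 158 ± 7.14 in wild type, and 24.6 ± 5.06 and 157 ± 11.7 in the mutant. AT3G12290 correlated at r = 0.987 with a difference in log2(signal + 10) of 0.41 in wild type and 0.39 in the mutant. A high correlation here thus reflects the shape over arrays and not the size of the change.

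By the distance between the 4 group means, each centred on its own mean, which counts size as well, the 5 closest genes were AT5G04600, AT4G13220, AT2G27710, AT5G27700 and AT5G02160. AT5G04600, at a distance of 0.10 log2 units, read 36.8 ± 13.7 under DMSO and 273 ± 9.45 under tZ in wild type, and 34.4 ± 6.71 and 271 ± 15.4 in the mutant. AT4G13220 read 22.7 ± 3.11 and 184 ± 4.99 in wild type, and 22.5 ± 2.94 and 196 ± 4.49 in the mutant. The deviations of these 5 within groups, which the distance did not use, had r from -0.407 to 0.486 with those of AT1G47400. No gene was on both lists of closest genes. All of these genes were picked for their likeness, so their differences carry no test.

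Markers of leaf and root were read beside these results. The leaf genes LHCB4.1 (light harvesting) and PORB (chlorophyll synthesis), 2 of 5 listed, gave a summed signal of 6649 to 6858 in wild type under DMSO and 6419 to 7009 under tZ, and 5911 to 6654 and 5849 to 6962 in the mutant, and neither passed in any comparison. Of 6 root markers 3 were measured. PRX57 and EXPA7 had all group means below the highest absent control, where PRX57 nevertheless passed in the mutant (log2 change 0.42, adjusted p = 0.016), while PYK10, a beta-glucosidase gene abundant in roots, fell from 837 ± 238 to 520 ± 44.1 in wild type (log2 change -0.64, SE 0.19, adjusted p = 0.012) and from 1129 ± 202 to 631 ± 124 in the mutant (-0.83, adjusted p = 0.0022). The summed signal of the 3 root markers was nearly all PYK10, so it follows 1 gene. It ran from 649 to 1106 under DMSO and 497 to 576 under tZ in wild type. In the mutant it ran from 904 to 1275 and from 504 to 747. The part of root tissue in the AT1G47400 difference was not tested. Of 3 phloem markers 0 were measured by name.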

How the data were processed

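The authors deposited 1 linear intensity for each probe set, computed with MAS5 per the submitters' processing notes. The sources used here give no version of it. Array medians ran from 33.8 to 35.7, and precision is limited by how few arrays there are. Of 22746 probe sets tested (64 controls left out), 13513 named 1 gene and 13436 of these matched a locus of the RefSeq table for TAIR10.1, giving 13286 genes. No coordinates are printed, since no build is named for the array.

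Signals were fitted as log2(signal + 10) with limma 3.58.1 in R 4.3.3, with 1 mean per group over all 12 arrays and variances moderated with a trend. The 5 contrasts were two-sided, with Benjamini-Hochberg adjustment over all probe sets and a threshold of 0.05. The fit was tested on simulated data. AT1G47400 itself was not tested. Where a gene has several probe sets, counts use the brightest. Named genes were AT1G47400, the listed iron genes measured by name, ARR15 and ARR16, 3 measured neighbours on each side, and the 10 and 5 most alike. The members and lists were chosen with earlier results of these data known. Names and roles that the annotation lacks come from general knowledge.

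As alternatives, the fits were rerun with pseudocounts of 1 and 50, with quantile normalization, with a common median, with a replicate block, no variance trend, leaving out the dimmest 40% of probe sets, and leaving out each array. Plots used matplotlib 3.10.9.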

Additional observations from a re-analysis of the deposited data

How the results depend on the processing

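With a pseudocount of 50 the AT1G47400 difference between tZ and DMSO was 2.07 (wild type) and 2.03 (mutant). It was lower by construction, since a larger added constant shrinks a change, most of all from a signal near or below that constant. With a pseudocount of 1 it was 2.95 and 2.86. The AT1G47400 genotype differences moved by less than its SD within groups under all 17 alternatives run for them. With 1 array left out, mutant minus wild type ran from -0.06 to 0.26 under DMSO and from -0.18 to 0.26 under tZ. The response difference ran from -0.26 to 0.18, so the signs of these differences are not settled. The counts of iron genes called in the 5 comparisons stayed within 1.5 times the main count under all alternatives run. Of 1690 values of single iron genes under alternatives, 9 lost and 5 gained a call and 0 reversed. Those not yet given are BGLU42 in wild type, which passed with quantile normalization (adjusted p = 0.035) and a common median (0.037), and AT3G56360 in wild type, which lost its call with a common median (0.069) and without a variance trend (0.058). The cause was not tested.

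Over all probe sets the count called between genotypes under DMSO was 3, and 18 without the dimmest 40%. Of wild type arrays, leaving out DMSO replicate 1 gave 10, and leaving out DMSO replicate 3 or either of tZ replicates 1 and 2 gave 5. Under tZ it was 8, and 16 without the dimmest 40%. The response difference called 0, and 1 with a pseudocount of 1, quantile normalization, without the dimmest 40% or without mutant tZ replicate 1, and 2 with a pseudocount of 50. With the replicate number as a block, 7 iron genes passed in wild type and 9 in the mutant, as without it, and the AT1G47400 differences were the same with an SE of 0.214. Deviations of arrays with the same number in other groups correlated between -0.129 and 0.113, with 2 of 18 pairs over 0.1. Pairs with different numbers ran from -0.126 to 0.181, with 2 of 36 over 0.1. With 3 arrays per group these values cannot tell whether a number marks a shared planting or batch, and the labels do not say.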
